A study of Caenorhabditis elegans with 3 samples.

Results

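The tubulin genes of the nematode Caenorhabditis elegans were followed in larvae near the end of the third larval stage (late L3). The set held 10 genes chosen by symbol, namely the alpha-tubulin genes tba-1, tba-2, tba-4 and mec-12, the beta-tubulin genes tbb-1, tbb-2, tbb-4, mec-7 and ben-1, and the gamma-tubulin gene tbg-1, among 15143 genes tested. RNA of late L3 hermaphrodites, labelled TP02, in preparations (preps) 1, 2 and 3 was compared on 3 two-colour microarrays with a wild-type (wt) mixed reference, 1 prep to an array. The labels state no genotype, strain or treatment for the larvae, and no stage or sex for the reference. The labels do not say whether the preps were separate cultures, so the p-values reflect variation among 3 samples that could be technical. Prep, array and the date in the array title form a single factor.

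Microtubules are hollow polymers of alpha- and beta-tubulin dimers. They form the mitotic and meiotic spindle, the tracks for motor proteins in nerve processes and the axoneme of cilia, and gamma-tubulin sits at the sites where they are nucleated. In the worm a few isotypes are made in most cells, whereas others serve nerve cells. The touch receptor neurons, which sense gentle touch, hold bundles of wide microtubules that need the alpha-tubulin MEC-12 and the beta-tubulin MEC-7.

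Values are log2 ratios with each array centred on its median, so 0 is the median probe of an array. They compare a gene with itself in the reference and say nothing of which isotype is the most abundant. Late L3 is taken as the numerator, which is likely but not stated, because the sample descriptions put the larvae ahead of the reference. If the ratio runs the other way, every sign below turns. Preps 1, 2 and 3 had values for 19909, 19855 and 19875 probes. Prep 3 was less spread than the other arrays, with a scaled median absolute deviation of 0.39, against 0.69 and 0.77 in preps 1 and 2. In RNA of whole larvae, fewer cells of a type and less RNA per cell cannot be told apart. Each of the 10 genes rested on 1 probe with values on every array. A second tba-2 probe did not have values on every array and was not used. Tubulins of a class are alike in sequence, so a ratio may hold signal of another member, and single members are uncertain for this reason.

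The 10 tubulin genes were chosen with earlier results of these data known. Of these 10, 7 were higher in late L3 by limma at an adjusted p under 0.05, against 11.4% of the 15143 genes tested. The count of lower genes was 0, against 11.9% of all genes, and it was also 0 at an unadjusted p under 0.05 in limma. Of all 15143 genes, 5390 had an unadjusted p under 0.05 in limma, in either direction. A one-sample test without shared spread had 5 higher and 1 lower, tbg-1, at an unadjusted p under 0.05 and 0 calls after adjustment. In that test 3274 of all genes had an unadjusted p under 0.05, in either direction. All 4 alpha-tubulin genes and 3 of the 5 beta-tubulin genes were among the higher ones. tbb-4, mec-7 and tbg-1 did not pass. The median of the 10 mean log2 ratios was 0.84, against -0.0021 over all genes. On all arrays, 8 of the 10 lay above the median, which 26.8% of all genes did, and tbg-1 alone of the 10 lay below it on all. With prep 1, 2 or 3 left out, 6, 4 and 5 of the 10 were higher, against 11.6%, 5.07% and 10.4% of all genes. With a trend along the probe identifiers removed, 6 were higher, against 11.5% of all genes.

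**Figure D1:**
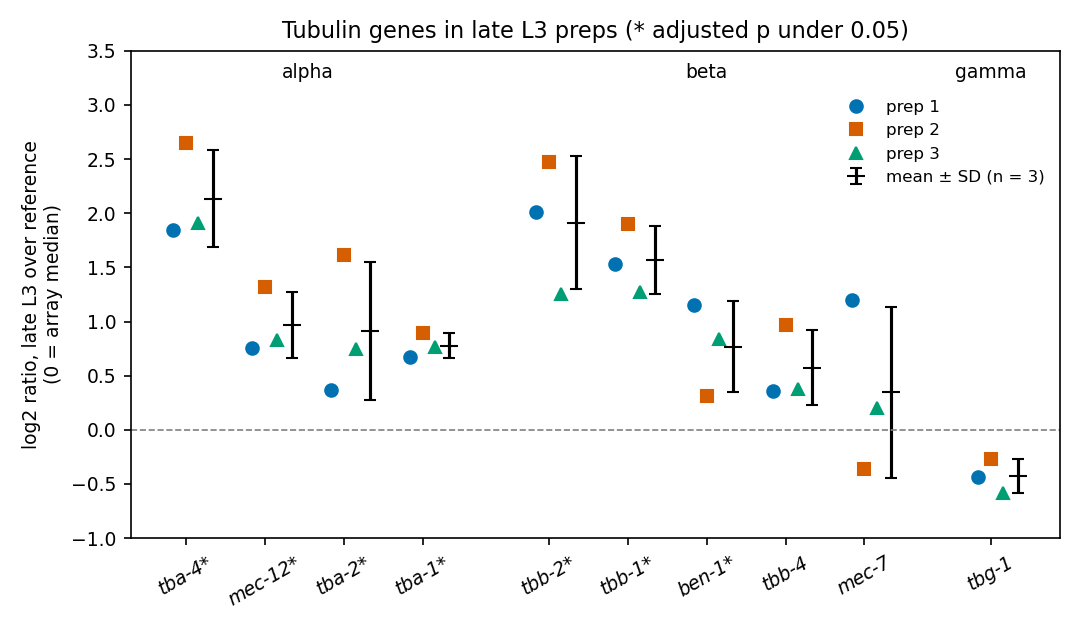
Log2 ratio of late L3 over the reference for each tubulin gene in preps 1 to 3 (coloured points) with the mean and SD over the 3 preps (black), grouped by class, and a dashed line at the array median. Prep 2 is the highest point of 8 genes and the lowest of mec-7 and ben-1, and tbg-1 lies below the line in all preps.

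Among alpha-tubulins, tba-4, an isotype made in many tissues, stood highest. Its log2 ratios were 1.84, 2.65 and 1.91 in preps 1, 2 and 3. All lay far above the array median, prep 2 the most. The mean was 2.14 ± 0.45 (SD, n = 3), which is 4.39-fold, with an adjusted p of 0.000174 in limma. Across all genes, 1.04% had a higher mean.

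The alpha-tubulins tba-1 and tba-2, on chromosome I, supply much of the spindle of the early embryo and overlap in function. The gene tba-1 was at 0.67, 0.90 and 0.76 in preps 1, 2 and 3. This was the closest agreement between preps of any of the 10, a range of 0.23. Its mean of 0.78 ± 0.11, or 1.71-fold, had an adjusted p of 0.0221. The call ended without prep 2 (0.0929) and without prep 3 (0.0880). The gene tba-2 was at 0.37, 1.62 and 0.75. Prep 2 stood well above both other preps. Its mean of 0.91 ± 0.64 had an adjusted p of 0.0315, and without prep 2 the mean was 0.56 with an adjusted p of 0.189. tba-2 exceeded tba-1 in 1 of the 3 preps, by 0.72 in prep 2, and the mean difference, 0.13 ± 0.53, was smaller than its SD.

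The gene mec-12 (chromosome III) encodes the alpha-tubulin of touch receptor neurons, which carries the lysine that is acetylated inside the microtubule. It was at 0.76, 1.32 and 0.83 in preps 1, 2 and 3. It was above the median in each prep, with a mean of 0.97 ± 0.31, or 1.95-fold, and an adjusted p of 0.0104. Without prep 2 the adjusted p was 0.0714. mec-12 minus tba-2 averaged 0.06 ± 0.34, and its sign differed between preps. In contrast, tba-4 exceeded tba-2 by 1.48, 1.03 and 1.16 in preps 1, 2 and 3, a mean difference of 1.22 ± 0.23. An exact sign-flip permutation test over 3 preps (2-sided) gave p = 0.25, the smallest it can give with 3 preps.

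Among beta-tubulins, tbb-2 and tbb-1 (both chromosome III), the isotypes of the embryonic spindle that are also made in most other cells, stood highest. The gene tbb-2 was at 2.01, 2.47 and 1.25 in preps 1, 2 and 3. Prep 3 was the lowest and still over 1 log2 unit above the median. Its mean was 1.91 ± 0.61, or 3.76-fold, with an adjusted p of 0.000576. The gene tbb-1 was at 1.53, 1.90 and 1.27. It was high in all preps, with a mean of 1.57 ± 0.32, or 2.97-fold, and an adjusted p of 0.000717. tbb-1 minus tbb-2 was -0.48, -0.57 and 0.02, a mean of -0.34 ± 0.31. Both genes and tba-4 kept an adjusted p under 0.05 without any 1 prep, with 0.0138 for tbb-2, 0.0134 for tbb-1 and 0.00479 for tba-4 as the largest, each without prep 2. With the identifier trend removed, the mean of tbb-1 was 1.03 and that of tbb-2 was 1.51, and both passed.

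The gene ben-1 (chromosome III) encodes the beta-tubulin through which benzimidazole drugs act on the worm. It was at 1.15, 0.32 and 0.84 in preps 1, 2 and 3. It was above the median in each, but prep 2 was the lowest, unlike in the tubulins above. Its mean was 0.77 ± 0.42, or 1.70-fold, with an adjusted p of 0.0379. The call ended without prep 1 (0.193), without prep 3 (0.122) and with the identifier trend removed (mean 0.43, adjusted p = 0.174).

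The beta-tubulin gene tbb-4 (X chromosome), which is made in nerve cells and enters sensory cilia, was at 0.36, 0.97 and 0.38 in preps 1, 2 and 3. All lay above the median and prep 2 was the highest. The mean of 0.57 ± 0.35 had an adjusted p of 0.0944 and did not pass. Relative to tbb-2 it was lower by 1.64, 1.50 and 0.87 log2 units, so tbb-4 minus tbb-2 averaged -1.34 ± 0.41 (exact sign-flip p = 0.25, the smallest possible with 3 preps). With the identifier trend removed that difference was -0.85.

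The gene mec-7 (X chromosome), which encodes the beta-tubulin of touch receptor neurons, varied most between preps. It was at 1.201, -0.36 and 0.20 in preps 1, 2 and 3. Prep 1 was high, prep 2 below the median and prep 3 close to it, a range of 1.56. The mean of 0.35 ± 0.79 had an adjusted p of 0.428, and without prep 1 it was -0.08 (adjusted p = 0.908). mec-12 minus mec-7 was -0.45, 1.68 and 0.63, so the touch receptor pair did not keep its order across preps. mec-7 minus tbb-2 averaged -1.56 ± 1.104 and was below 0 in all preps, -0.81, -2.83 and -1.05. Of X-linked genes 14.6% were higher and of genes on chromosomes I to V 10.8%.

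The gamma-tubulin gene tbg-1 (chromosome III), whose protein is part of the ring complex at centrosomes and other nucleation sites, was at -0.44, -0.27 and -0.58 in preps 1, 2 and 3. It lay below the median on each array, least in prep 2 and most in prep 3. Its mean of -0.43 ± 0.16, or 1.35-fold lower, had an adjusted p of 0.173 and did not pass. Of all genes, 78.3% had a higher mean. Its ring complex partner gip-1 was at -0.32, 0.32 and 0.40, with no call, and is named here with its values already known.

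**Figure D2:**
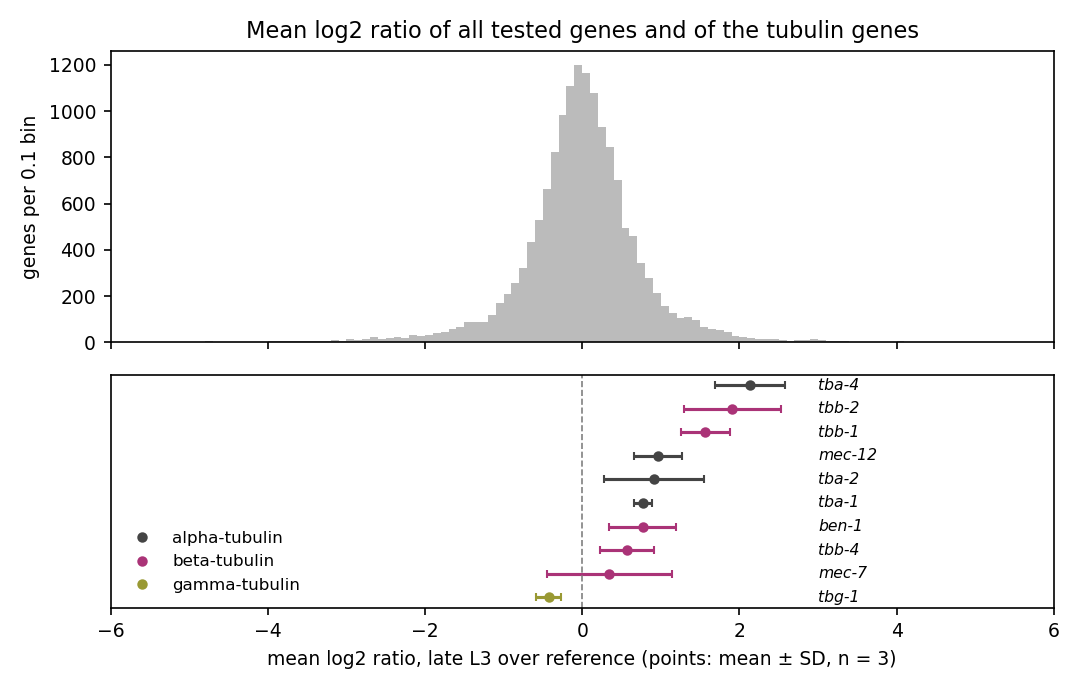
Upper panel, number of genes in each bin of mean log2 ratio, late L3 over reference, for all genes tested. Lower panel, mean and SD over 3 preps of each tubulin gene on the same axis, coloured by class, with tba-4, tbb-2 and tbb-1 at 2.14, 1.91 and 1.57 in the right tail and tbg-1 at -0.43 left of the centre.

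In order of mean log2 ratio the genes ran tba-4, tbb-2, tbb-1, mec-12, tba-2, tba-1, ben-1, tbb-4, mec-7 and tbg-1. Among the neighbours of this order, tbb-1 over mec-12 was the pair with the same sign in all 3 preps, with differences of 0.78, 0.59 and 0.44 and a mean of 0.60 ± 0.17. All other neighbours changed order in at least 1 prep. The differences of mec-12 over tba-2, tba-2 over tba-1, tba-1 over ben-1, ben-1 over tbb-4 and tbb-4 over mec-7 were between 0.01 and 0.22, each smaller than its SD. tbb-2 over tbb-1 was 0.34 ± 0.31, and its sign turned in prep 3.

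Most of the tubulin genes shared the prep in which they were highest. Prep 2 was the highest of the 3 for 6 of the 7 genes that passed, the exception being ben-1. Among all 1722 genes called higher it was the highest for 61.1%, and among genes with no call for 37.6%. The genes whose ratio lay closest to tba-4 over the 3 arrays, by Euclidean distance of the log2 ratios, were the troponin I gene tni-1 at a distance of 0.18, R02F11.1 at 0.21 and the nidogen gene nid-1, of a basement membrane protein, at 0.22. Their means were 2.07, 2.05 and 2.17.

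The other 6 tubulin genes measured had 1 higher and 1 lower, with a median of 0.05. Of all genes, 11.4% were higher and 11.9% lower. The alpha-tubulin gene tba-7 was at 1.13, 1.37 and 0.51 in preps 1, 2 and 3, with a mean of 1.00 ± 0.44 and an adjusted p of 0.0122 (0.0923 without prep 2). The beta-tubulin gene tbb-6 was at -1.37, -0.39 and -0.70, with a mean of -0.82 ± 0.50 and an adjusted p of 0.0348. That call ended without prep 1 (0.227), prep 2 (0.0518) or prep 3 (0.0630), and with the identifier trend removed (0.0622). The means of tba-5, tba-6, tba-8 and tba-9, of which tba-5, tba-6 and tba-9 are known from ciliated neurons, lay between -0.12 and 0.17 with no call, and these 4 are named outside the naming rule, with their values known.

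Newly made tubulin is folded by the CCT chaperonin with prefoldin and paired by the tubulin cofactors. Of 15 measured folding genes, 4 were higher and 0 lower, against 11.4% and 11.9% of all genes, with a median of 0.32. At an unadjusted p under 0.05 in limma, 6 were higher and 2 lower, where 5390 of all 15143 genes passed in either direction. Of 6 measured CCT subunit genes 3 were higher, with means from 0.39 to 1.78. Among them cct-7 was at 1.78 ± 1.06, cct-1 at 1.19 ± 0.22 and cct-2 at 1.01 ± 0.21 (adjusted p = 0.0526 without prep 2). The prefoldin gene pfd-3 was at 0.97 ± 0.17, and its adjusted p was 0.00812. The 3 measured cofactor genes had no call and means from -0.28 to -0.04. With the identifier trend removed, 7 folding genes were higher and 1 lower.

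Of 18 measured genes for nucleation, centrioles and microtubule ends, 3 were higher and 0 lower, against 11.4% and 11.9% of all genes. Their median was 0.09, and 4 were lower at an unadjusted p under 0.05. Among the CLASP genes, whose proteins stabilise microtubules, cls-2 and cls-1 were called, at 1.11 ± 0.30 and 0.83 ± 0.31. The gene cls-3 was at 0.04, 0.81 and -0.12 with no call, and is named outside the rule. The called gene klp-7, of a kinesin that takes microtubules apart, was at 1.05 ± 0.35. Without prep 2, cls-2 alone remained called, since the adjusted p was 0.112 for cls-1 and 0.0598 for klp-7. The cls-1 call also ended without prep 1 (0.0750), and both ended with the identifier trend removed (0.0854 and 0.0877).

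Enzymes that modify tubulin had 1 higher and 2 lower of 9 measured, against 11.4% and 11.9% of all genes, with a median of -0.40. The gene ttll-12 was at 1.06 ± 0.41. The glutamylase gene ttll-4 was at -0.86 ± 0.19 and ccpp-1, of a carboxypeptidase that removes glutamate side chains, at -0.92 ± 0.21. Without prep 2 each call ended, with adjusted p-values of 0.0666, 0.0816 and 0.0540, and that of ttll-4 also ended with the identifier trend removed (0.0549). The acetyltransferase gene mec-17, whose enzyme acts on the MEC-12 protein, was at -0.05, -0.42 and 0.10 with no call, and is likewise named outside the rule.

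Genes for microtubule-binding and severing proteins had 2 lower and 0 higher of 12 measured, against 11.9% and 11.4% of all genes. At an unadjusted p under 0.05, 2 were higher, and the median was 0.11. Both lower genes encode the subunits of katanin, which severs microtubules of the meiotic spindle. The gene mei-2 was at -2.23, -1.50 and -2.03 in preps 1, 2 and 3, with a mean of -1.92 ± 0.38 and an adjusted p of 0.000267. The gene mei-1 was at -1.83, -1.22 and -0.49, with a mean of -1.18 ± 0.67 and an adjusted p of 0.0107 (0.0838 without prep 2). Both katanin genes thus stood on the opposite side of the median from tba-1, tba-2, tbb-1 and tbb-2.

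Motor genes were mixed. Of 14 measured genes of dynein and its partners 3 were higher and 1 lower, against 11.4% and 11.9% of all genes. Their median was 0.08. The dynein heavy chain gene dhc-1 was at 0.91 ± 0.24 (adjusted p = 0.0889 without prep 3), dli-1 at 0.77 ± 0.12 and nud-1 at 0.66 ± 0.08. The dli-1 and nud-1 calls ended when any 1 prep was left out (adjusted p from 0.0685 to 0.131), and nud-1 also with the identifier trend removed (0.0731). The gene nud-2, of a dynein regulator, was at -0.90 ± 0.06 (adjusted p = 0.0548 without prep 2). Of 17 kinesin genes 1 was higher and 1 lower, against the same shares of all genes, with a median of 0.20. The gene klp-4 was at 0.78 ± 0.24 (adjusted p = 0.124 without prep 2 and 0.0532 without prep 3) and the light chain gene klc-1 at -0.92 ± 0.15 (adjusted p = 0.0514 without prep 3).

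**Figure D3:**
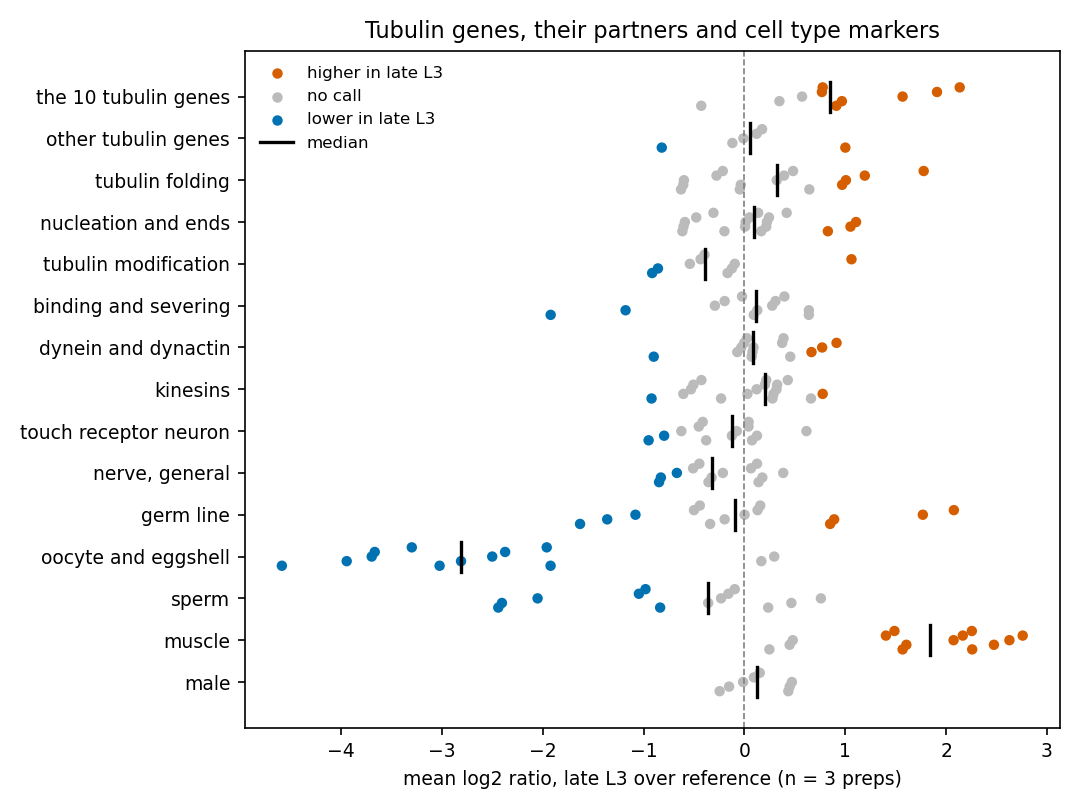
Mean log2 ratio over 3 preps of each gene in the tubulin set, in the lists of partner genes and in the cell type marker lists, coloured by its call in limma, with the median of each list as a black bar. The tubulin median of 0.84 lies right of all partner lists, oocyte and eggshell genes reach furthest to the left and muscle genes furthest to the right.

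Markers of the cells that use these tubulins were set beside them. Touch receptor neuron genes had 2 lower and 0 higher of 13 measured, against 11.9% and 11.4% of all genes. At an unadjusted p under 0.05, 1 was higher, and the median was -0.12. The list held mec genes and unc-86, and which cells make each of them was not tested. The lower genes were mec-15 at -0.95 ± 0.42 and mec-3, a transcription factor gene of these neurons, at -0.80 ± 0.22. Both calls ended without prep 1 (adjusted p = 0.0541 and 0.0979) and without prep 2 (0.0902 and 0.0867). General nerve genes had 3 lower and 0 higher of 13, against the same shares of all genes. Their median was -0.33, with 0 higher at an unadjusted p under 0.05. The lower nerve genes were snt-1 at -0.83 ± 0.32 (0.123 without prep 2), ida-1 at -0.85 ± 0.16 (0.0792 without prep 3) and rgef-1 at -0.67 ± 0.24 (0.0786 to 0.178 without any 1 prep). The rgef-1 call also ended with the identifier trend removed (0.0754). The touch receptor list medians were -0.25, -0.22 and -0.11 in preps 1, 2 and 3. Prep 2, the lowest for mec-7, was the lowest of the 3 in 6 of the 13 touch receptor genes (46.2%), against 33.8% of all genes. The general nerve list gave the same share, 6 of 13. Prep 1, the highest for mec-7, was the lowest in 7 touch receptor genes (53.8%), against 34.05% of all genes. Prep 1 was the highest in 4 touch receptor genes (30.8%), against 31.9% of all genes. These 4, mec-2, mec-4, mec-10 and mec-18, had the prep order of mec-7, highest in prep 1 and lowest in prep 2. They are named outside the rule, with their values known. The list medians did not follow that order, and whether touch receptor genes share a prep pattern was not tested.

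Markers of other tissues also differed between the larvae and the reference, and their part in the tubulin ratios was not tested. Of all genes, 11.4% were higher and 11.9% lower. Muscle genes had 11 higher and 0 lower of 14 measured in limma, with 0 lower at an unadjusted p under 0.05 and list medians of 1.78, 2.09 and 1.43 in preps 1, 2 and 3. Germ line genes had 4 higher and 3 lower of 14, and without prep 1 or without prep 2 there were 2 higher. Their list medians were -0.18, 0.17 and -0.10. Oocyte and eggshell genes had 11 lower and 0 higher of 13, with 0 higher at an unadjusted p under 0.05 and list medians of -2.63, -2.82 and -2.76. Sperm genes had 6 lower and 0 higher of 13 (3 lower without prep 2, and 1 higher at an unadjusted p under 0.05), with list medians of -0.25, -0.46 and -0.33. Male genes had 0 calls among 8 in limma, and 0 at an unadjusted p under 0.05, with list medians of 0.22, 0.37 and -0.02. Ratios against the reference do not show whether a marker was absent from either channel.

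**Figure D4:**
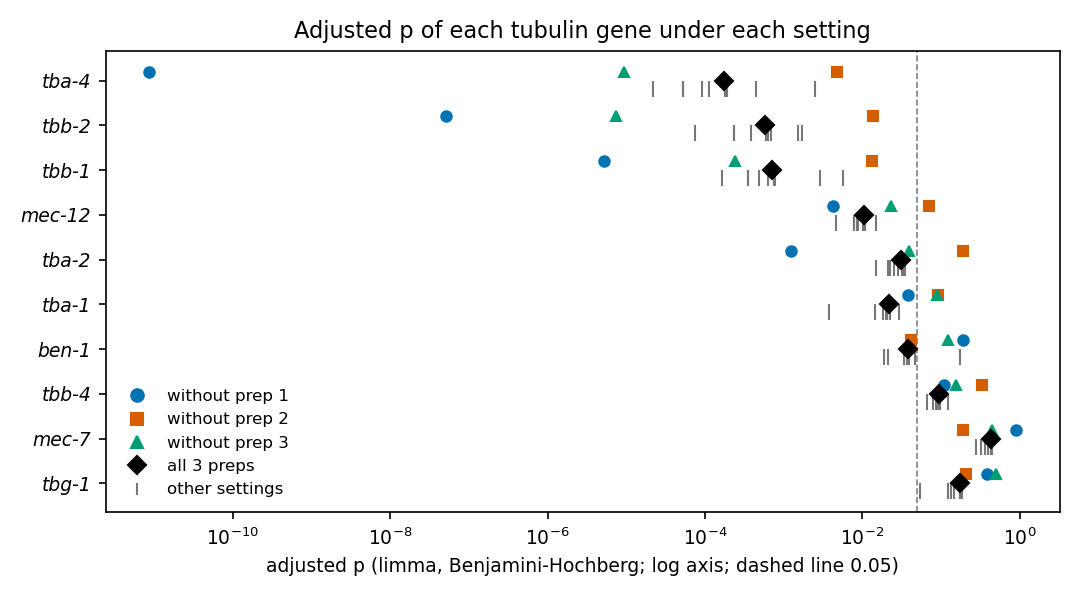
Adjusted p of each tubulin gene (log axis, dashed line at 0.05) with all 3 preps (diamonds), with 1 prep left out (coloured points) and under the other processing settings that use limma (ticks). tba-4, tbb-2 and tbb-1 lie left of the line under every setting drawn, tbb-4, mec-7 and tbg-1 right of it, and the other genes on both sides.

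The genes tba-4, tbb-2 and tbb-1 were thus called at the threshold of 0.05 in each limma setting tried that keeps the sign. At an adjusted p under 0.01, 3 of the 10, the same genes, were higher, against 5.92% of all genes. Higher and at least 2-fold were again these 3, against 6.7% of all genes, and lower and at least 2-fold were 0 of the 10, against 6.95%. Genes mec-12, tba-2, tba-1 and ben-1 lost their call in at least 1 setting, as given with each gene above.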

How the data were processed

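The deposited values are log2 ratios of the 2 channels of each array. The base of 2 follows from the values, since 2 to the power of every ratio under 0.3 gave whole thousandths within 0.01 of a thousandth. How the authors normalized or filtered them is not stated in the labels, and spot intensities were not used here. Of 20000 probes, 15655 had 1 gene symbol, 198 several and 4147 no symbol, and 15569 names were updated by gene ID and 7 by accession through the RefSeq table of assembly WBcel235, which also gave chromosomes. Each array was centred on its median and probes of a gene were averaged. The mean log2 ratio of 15143 genes was compared with 0 in limma 3.58.1 under R 4.3.3 (intercept fit, eBayes, 2-sided, Benjamini-Hochberg over all genes, threshold 0.05). The reference enters each ratio as the other channel, so its variation between arrays is part of the spread tested. Variation between reference preparations was not measured separately, and precision is limited by the number of arrays. The prior degrees of freedom were 7.96. The script was tested on simulated data. Figures used matplotlib 3.10.9.

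The members and the lists were chosen with earlier results of these data known. All 10 members are named. Of each list, up to 4 genes past the threshold with the largest absolute means were eligible to be named, or the 2 with the largest where fewer than 2 passed, and the 3 genes nearest to the called member with the largest mean. A gene outside this rule is marked as such where it is named. Differences between members were tested with an exact sign-flip permutation test, which cannot go below 0.25 with 3 preps. Alternatives were centring, scaling, quantile normalization, missing values, probe choice, array weights, robust eBayes, a one-sample test, other thresholds, the sign of the ratio and the omission of each prep. Removing a running median over 201 probes in identifier order was added after seeing the data. A planned comparison of protein sequences was not made, since sequences were not used here.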

Additional observations from a re-analysis of the deposited data

How the results depend on the processing

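Of the 10 tubulin genes, 7 were also higher without centring, with mean centring, with arrays scaled to 1 spread and after quantile normalization. The count was also 7 with values on at least 2 arrays, with robust eBayes and with array weights. It was 6 with the identifier trend removed. With the lowest-identifier probe it was 6 too, and tba-2 was not tested there, since that probe did not have values on every array. Leaving out 1 prep gave 4 to 6. The count was 3 at an adjusted p under 0.01 and 3 with at least 2-fold means, where tba-1 (0.78), tba-2 (0.91), mec-12 (0.97) and ben-1 (0.77) did not pass. The one-sample test without shared spread called 0 of the 10 and 0 of all genes, though 5 of the 10 on the higher side, 1 on the lower side and 3274 of all genes had an unadjusted p under 0.05 there, against 8, 0 and 5390 with limma. There the means of tba-1 (0.78), tba-2 (0.91), tba-4 (2.14), mec-12 (0.97), tbb-1 (1.57), tbb-2 (1.91) and ben-1 (0.77) had adjusted p-values of 0.168, 0.335, 0.177, 0.203, 0.177, 0.206 and 0.280. With the identifier trend removed ben-1 was at 0.43 and did not pass, tba-2 minus tba-1 was -0.00019, mec-12 minus tba-2 was -0.16 and tbb-4 minus tbb-2 was -0.85.

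With 1 prep left out, means ranged from 0.72 to 0.83 for tba-1, 0.56 to 1.18 for tba-2, 0.79 to 1.07 for mec-12, 0.58 to 0.99 for ben-1 and -0.080 to 0.70 for mec-7. tba-2 minus tba-1 ranged from -0.16 to 0.35 and mec-12 minus tba-2 from -0.11 to 0.23. With all signs turned, 0 tubulin genes were higher and 7 lower, with means of -0.78 for tba-1, -0.91 for tba-2, -2.14 for tba-4, -0.97 for mec-12, -1.57 for tbb-1, -1.91 for tbb-2, -0.57 for tbb-4, -0.35 for mec-7, -0.77 for ben-1 and 0.43 for tbg-1. The differences were then -0.13 for tba-2 minus tba-1, -1.22 for tba-4 minus tba-2, -0.055 for mec-12 minus tba-2, 0.34 for tbb-1 minus tbb-2, 1.34, 1.56 and 1.14 for tbb-4, mec-7 and ben-1 minus tbb-2, and -0.62 for mec-12 minus mec-7. Over all related lists, whose measured numbers are given with each list above, 28 genes were higher and 32 lower. Of all genes, 11.4% were higher and 11.9% lower. The list counts became 0 and 0 in the one-sample test and 17 to 26 and 20 to 27 with 1 prep left out. With 1 prep left out, 5.07% to 11.6% of all genes were higher. Lower list genes numbered 18 at an adjusted p under 0.01. With at least 2-fold means they numbered 20, where 6.95% of all genes were lower. Of 44 called genes that the naming rule gave outside the 10, 23 kept their call in each fit that left out 1 prep. Apart from alternatives that turn signs, leave out a prep or change the test or threshold by construction, the cause of a lost call was not tested. No paired analysis was possible because the design has 1 group of samples against a common reference.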
